A study of Mus musculus with 18 samples.

Results

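Injury of the sciatic nerve was set against a sham operation in which the uninjured nerve was exposed to hydrogen peroxide, the diffusible oxidant that injured tissue also produces. The comparison used 6 of the 18 libraries of an RNA sequencing study of mouse dorsal root ganglia, where the cell bodies of the sensory neurons of limbs and trunk lie. The 3 libraries of axotomized mice are labelled SNA_Saline, sciatic nerve injury with saline. The 3 libraries of peroxide-treated mice are titled Sham_H202 in the labels and written Sham_H2O2 here, a sham operation with 13 mM peroxide. Libraries were taken by these labels alone, though the comparison itself was chosen with earlier results of these data known. No measured value picked single libraries, and all 15730 genes of the count table were compared. Every library of the study came from sciatic ganglia (L4-L6) pooled from 2 C57BL/6 mice aged 6 to 8 weeks and collected 24 hours after surgery, and no label names a mutation or transgene. The remaining groups of 3 libraries each were Sham_Saline (sham with saline), SNA_NAC (sciatic nerve injury with 30 mM N-acetyl-cysteine, a thiol antioxidant), DCA (injury of the spinal dorsal columns) and LAM (laminectomy, the bone removal that exposes the cord). The agent, saline or peroxide, and the injury itself both differ between the groups compared, and the labels used here do not say how the nerve was injured or for how long the peroxide acted.

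When the peripheral axon of a sensory neuron is cut, signals travel back to the cell body and switch on a set of injury-responsive transcription factors, led by ATF3 and JUN, and with them genes for axon regrowth, neuropeptides and secreted factors. Reactive oxygen species, peroxide among them, are made at the lesion and by invading immune cells, and cells answer them through the NRF2 pathway, whose targets reduce thiols and peroxides. Setting axotomy against peroxide on an intact nerve asks which changes in the ganglion accompany the injury and not the oxidant alone. Arithmetically, the difference between these groups is also the difference between the axotomy response and the peroxide response, since the Sham_Saline mean cancels.

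Library totals in the comparison ran from 6472476 counts (Sham_H2O2 replicate 3) to 21173205 counts (Sham_H2O2 replicate 2), with 9467654 to 15390014 counts in SNA_Saline. CPM here are counts scaled by TMM to a common library size. Taken over genes, the SD among the replicates of a group had a median in log2 CPM of 0.183 in SNA_Saline and 0.251 in Sham_H2O2. The index labels of all 3 Sham_H2O2 libraries carry a letter that no other group has, and whatever it marks cannot be told apart from the treatment. Markers of sensory neurons were abundant in every library, with summed levels of 10880 to 11780 CPM in SNA_Saline and 10440 to 11930 CPM in Sham_H2O2, and the ranges of the Schwann cell, satellite glia, macrophage, neutrophil and skeletal muscle sums also overlapped between the groups. In such bulk samples fewer cells of a type and less RNA per cell cannot be told apart.

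After axotomy 150 of the 15730 genes differed from peroxide-treated sham at an adjusted p under 0.05, which is 0.954% of those tested (edgeR's quasi-likelihood test over all 18 libraries, Benjamini-Hochberg adjustment). An unadjusted p under 0.05 was reached by 1147 genes (7.29%). The change was nearly all in 1 direction: 138 genes were higher after axotomy (0.877% of those tested) and 12 were lower (0.0763%), and all 57 genes past an absolute log2 fold change of 1 were higher. In each of the 150 the axotomized libraries and the peroxide libraries did not overlap, as was so for 10.8% of all genes. Such separation is therefore shared by every called gene named below and adds no further support to its call. The median log2 fold change was 0.86 among the higher genes, -0.66 among the lower genes and -0.0017 over all genes. Below, a gene is said to rise or fall where it passed this test, with SNA_Saline over Sham_H2O2 as the direction. Counts of list members are to be read beside the shares of all genes given here. The lists were chosen with earlier results of these data known, so their counts and medians are descriptions and not tests.

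**Figure D1:**
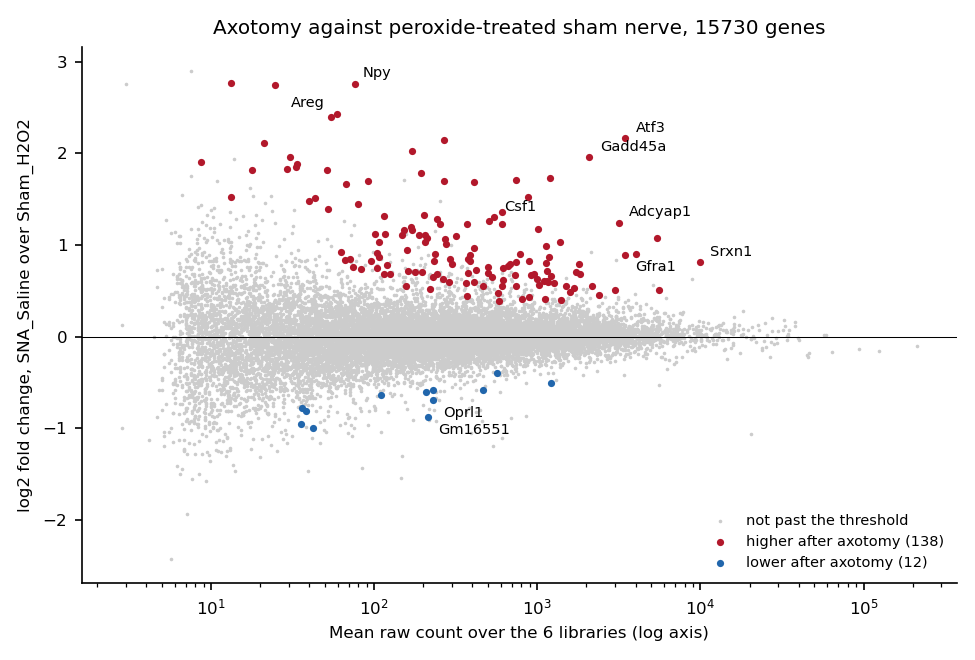
Each point is a gene, with its mean raw count over the 6 libraries on the x axis (log axis) and its log2 fold change, SNA_Saline over Sham_H2O2, on the y axis. The 138 genes that were higher after axotomy (red) reach a log2 fold change of 2.76, whereas none of the 12 lower genes (blue) passes -1; grey genes did not pass the threshold.

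The number of calls depended on the libraries that share the estimate of spread. With only the 6 libraries of the comparison in the fit 48 genes were called, all higher, and 47 of them were among the 150. With an offset for GC share and transcript length 457 genes were called, of which 332 were higher and 125 lower (72.6% higher, against 92% above), and 144 of the 150 kept their call. Of the list members, that offset added 5 calls on the lower side, Nrn1, Gfra2, Scn2b, Bcl2 and Isl1. Leaving out any single library of the 6 left 74 to 136 calls, the fewest without Sham_H2O2 replicate 2, 86 without SNA_Saline replicate 1 and 87 without Sham_H2O2 replicate 1, and 57 of the 150 (56 higher, 1 lower) were called in all 6 of these fits. Without Sham_Saline replicate 1, which enters only through the shared spread, 223 genes were called.

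Transcription factors of the injury response gave 7 increases. Of 18 measured, all 18 had a log2 fold change of at least 0, 7 rose (0.877% of all genes did) and none fell. The median was 0.67 against -0.0017 over all genes, in a list chosen with earlier results of these data known. Atf3, the bZIP factor used as a marker of axotomized neurons, stood at 450, 420 and 462 CPM in the SNA_Saline libraries and at 121, 96.4 and 79.5 CPM in the Sham_H2O2 libraries. The lowest axotomized library was thus far above the highest peroxide library, and the log2 fold change was 2.17 ± 0.18 (SE; adjusted p = 8.26e-06). Jun, its usual dimer partner, was at 152, 151 and 143 CPM after axotomy and at 80.4, 71.6 and 65.3 CPM after peroxide (log2 fold change 1.04 ± 0.12, adjusted p = 0.000194). The groups were again apart, with little spread inside either. Sox11, a developmental factor that is silent in most adult sensory neurons and returns after nerve injury, was low in every library, at 4.29, 5.19 and 3.49 CPM against 1.81, 1.04 and 0.636 CPM. Its log2 fold change was 1.89 ± 0.33 (adjusted p = 0.00612), and its call was lost without Sham_H2O2 replicate 2 (adjusted p = 0.0759). Nfil3, a repressor that binds CREB-like sites, was at 17.7, 17.6 and 20.7 CPM against 9.18, 8.96 and 6.51 CPM (log2 fold change 1.17, adjusted p = 0.00158). Fosl2, Klf6 and Smad1, a Fos-family member, a Krüppel-like zinc-finger factor and the transducer of BMP signals, completed the 7, with log2 fold changes of 0.85, 0.80 and 0.67. Of the 11 members that did not pass, Myc (0.62, adjusted p = 0.0841) and Socs3 (0.83, adjusted p = 0.212) did not overlap between the groups, while Stat3 (0.22) and Ddit3 (0.28) did.

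Immediate early genes, which neurons switch on within minutes of activity, gave 1 call. Of 14 measured only Dusp1, a phosphatase that turns off MAP kinases, rose, from 22.5 to 25.3 CPM in the peroxide libraries to 31.6 to 38.3 CPM after axotomy. Its log2 fold change was 0.58 (adjusted p = 0.0197), and it lost its call without either of SNA_Saline replicates 1 and 2 (adjusted p = 0.146 and 0.112) and without either of Sham_H2O2 replicates 1 and 2 (adjusted p = 0.0942 and 0.115). Fos had a log2 fold change of 0.16 and Egr1 of 0.03, both with overlapping groups.

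ATF and Jun proteins bind the cyclic AMP response element TGACGTCA and the AP-1 site TGACTCA, and ATF family factors also bind the amino acid response element TGATGCAA. These letters were therefore searched on both strands in the 250 bases before the annotated starts of genes, from RefSeq on GRCm38.p6, which held 11374 of the 15730 tested genes and 113 of the 150 called (104 higher, 9 lower). The sites printed here are the matches to these 3 motifs in called genes whose values are given in the text, with the matched letters in capitals, 5′ to 3′ on the strand of the gene.

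Areg, TGACGTCA, chr5:91139518-91139565, plus strand: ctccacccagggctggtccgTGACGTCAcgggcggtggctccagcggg
Atf3, TGATGCAA on the opposite strand, chr1:191183416-191183463, minus strand: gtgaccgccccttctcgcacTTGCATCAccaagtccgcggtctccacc
Procr, TGACTCA, chr2:155751043-155751089, plus strand: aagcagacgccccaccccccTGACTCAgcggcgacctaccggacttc
Plaur, TGACTCA, chr7:24462394-24462440, plus strand: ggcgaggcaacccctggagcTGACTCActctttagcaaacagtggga
Il6, TGACTCA on the opposite strand, chr5:30012864-30012891, plus strand: cTGAGTCActtttaaagaaaaaaaagaa
Srxn1, TGACTCA on the opposite strand, chr2:152105402-152105448, plus strand: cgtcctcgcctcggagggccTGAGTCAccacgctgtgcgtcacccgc
Srxn1, a further TGACTCA on the opposite strand, chr2:152105459-152105505, plus strand: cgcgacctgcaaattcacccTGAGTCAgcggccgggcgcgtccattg
Npy1r, TGACTCA on the opposite strand, chr8:66697172-66697217, plus strand: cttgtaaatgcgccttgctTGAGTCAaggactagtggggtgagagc
Dusp1, TGACGTCA, chr17:26508588-26508635, minus strand: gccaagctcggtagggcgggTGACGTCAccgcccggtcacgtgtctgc

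TGACTCA was present in 9 of the 104 higher genes (8.65%) and in 460 of all 11374 genes (4.04%), and in 0 of the 9 lower genes. TGACGTCA was present in 4 of the 104 (3.85%, against 2.94% of all) and in 0 of the 9. The core of the antioxidant response element, TGACNNNGC, which NRF2 binds and which a TGACTCAGC run also matches, was present in 18 of the 104 (17.3%), in 3 of the 9 lower genes (33.3%) and in 14% of all genes. TGATGCAA was present in 1 of the 104, Atf3 (0.962%), in 0 of the 9 and in 0.677% of all. A gene was counted where any of its windows held the letters. In the first listed window alone TGACNNNGC was in 16 of the 104 (15.4%), 1 of the 9 (11.1%) and 12% of all genes. There TGACTCA was in 8 of the 104 (7.69%, against 3.08% of all) and TGACGTCA in 3 (2.88%, against 2.67%). The repeated symbol Uck2 entered the 104 under each of its gene identifiers, with the same TGACNNNGC site. These are counts of letters in a window and show no binding.

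Genes that act in the growing or injured axon formed the next group. Of 23 measured, 7 rose (0.877% of all genes did) and none fell, with a median log2 fold change of 0.63. The surface protein gene Flrt3, which promotes neurite growth, was at 159, 162 and 122 CPM after axotomy and at 55.4, 37.1 and 42.1 CPM after peroxide. Its groups were far apart, with a log2 fold change of 1.73 ± 0.20 (adjusted p = 0.000168). Plaur, the receptor of the urokinase plasminogen activator, was at 22.9, 18.7 and 25.4 CPM against 9.70, 9.73 and 6.99 CPM (log2 fold change 1.33 ± 0.21, adjusted p = 0.00327). Its groups did not overlap, while Plat, the tissue-type plasminogen activator, had a log2 fold change of 0.44 (adjusted p = 0.12). Stmn4, of the stathmin family of microtubule regulators, was at 70.3, 64.1 and 69.7 CPM against 31.6, 27.9 and 27.6 CPM (log2 fold change 1.23 ± 0.16, adjusted p = 0.000576). Lmo7, Tubb6 and Tnfrsf12a also rose, by 1.11, 1.10 and 1.07 on the log2 scale. Tubb6 lost its call without Sham_H2O2 replicate 1 (adjusted p = 0.0546), and Tnfrsf12a without SNA_Saline replicate 1 or 3 or Sham_H2O2 replicate 2 or 3 (adjusted p from 0.0701 to 0.0848). Not every classical growth gene passed. Sprr1a, known as strongly induced in axotomized sensory neurons, was at 20.5, 21 and 15.3 CPM against 4.91, 5.21 and 7.47 CPM. These groups did not overlap, but the log2 fold change of 1.71 ± 0.48 missed the threshold (adjusted p = 0.154). Gap43 had one of 0.32 ± 0.12 (adjusted p = 0.423). Of 15 cytoskeletal genes of the resting neuron, such as neurofilaments and tubulins, only Tuba1c rose (0.95, adjusted p = 0.0164), and it lost its call without any of SNA_Saline replicates 1 and 3 (adjusted p = 0.0748 and 0.0866) and Sham_H2O2 replicates 1 and 3 (adjusted p = 0.108 and 0.0647).

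**Figure D2:**
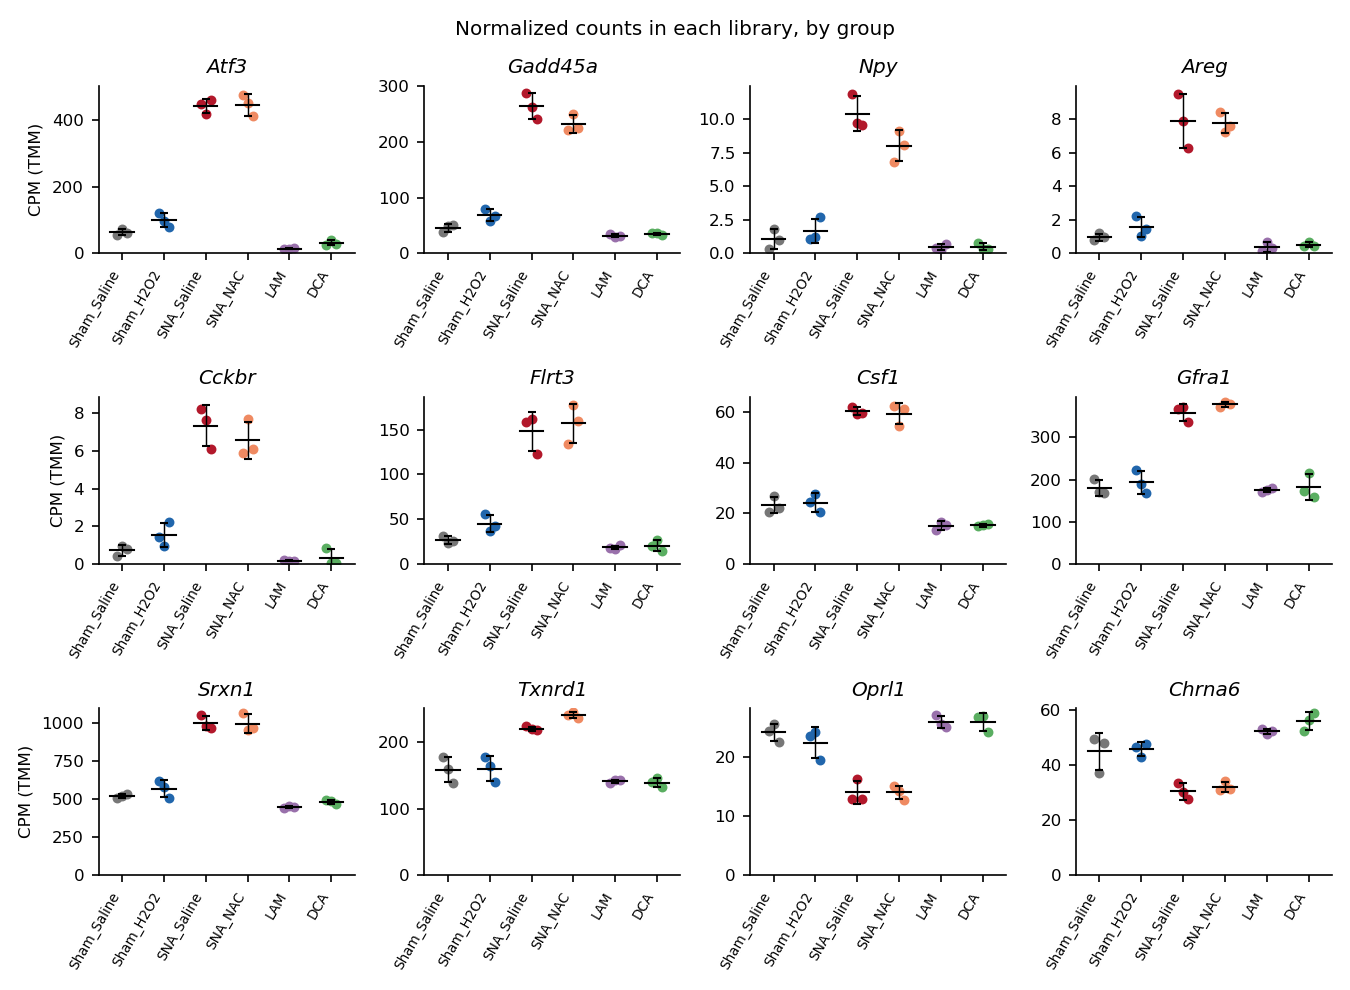
CPM after TMM scaling (y axis, from 0) of 12 named genes in each of the 18 libraries, by group; points are libraries, horizontal lines means and bars SD (n = 3). For the 10 genes higher after axotomy every SNA_Saline point lies above every Sham_H2O2 point (Atf3 at 420 to 462 against 79.5 to 121 CPM), and for Oprl1 and Chrna6 every one lies below.

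Among neuropeptides, 3 of 15 measured rose (0.877% of all genes did) and none fell, while the list as a whole had a median of 0.06. Npy, neuropeptide Y, which adult sensory neurons make after nerve injury, was at 11.9, 9.73 and 9.55 CPM after axotomy and at 1.03, 1.22 and 2.70 CPM after peroxide. This was the largest increase among the genes named by the size rule, at 2.76 ± 0.46 on the log2 scale (adjusted p = 0.00502), and its call was lost without Sham_H2O2 replicate 2 (adjusted p = 0.0675). Adcyap1, the gene of the peptide PACAP, was at 398, 386 and 293 CPM against 175, 130 and 150 CPM (log2 fold change 1.24 ± 0.15, adjusted p = 0.000328). Gal, galanin, was at 44.6, 34.6 and 40.8 CPM against 18.1, 20.1 and 12.2 CPM (log2 fold change 1.23 ± 0.25, adjusted p = 0.0182). Both peptides were higher in every axotomized library, and Gal lost its call without any of SNA_Saline replicates 1 and 3 (adjusted p = 0.107 and 0.0612) and Sham_H2O2 replicates 1 and 3 (adjusted p = 0.0729 and 0.0792). The peptides of uninjured pain fibres had log2 fold changes of 0.01 for Calca (CGRP) and -0.05 for Tac1 (substance P), both with overlapping groups.

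Secreted signals rose in 5 of 15 cases, against 0.877% of all genes, and fell in none, with a median of 0.50. Areg, amphiregulin, a ligand of the EGF receptor, was at 9.50, 7.89 and 6.27 CPM after axotomy and at 2.2, 1.04 and 1.43 CPM after peroxide, a log2 fold change of 2.43 ± 0.32 (adjusted p = 0.000587). Il6, the interleukin that signals through STAT3, was low throughout, at 4.03, 4.54 and 3.28 CPM against 1.16, 0.724 and 1.43 CPM. Its log2 fold change was 1.95 ± 0.35 (adjusted p = 0.008), and its call was lost without Sham_H2O2 replicate 2 (adjusted p = 0.11). Csf1, the growth factor of macrophages and microglia that injured sensory neurons release, was at 62.2, 59.1 and 59.8 CPM against 24.7, 27.7 and 20.5 CPM (log2 fold change 1.30 ± 0.13, adjusted p = 4.29e-05). Fst, follistatin, which binds and blocks activin, was at 28, 31.6 and 24.6 CPM against 11.9, 10.3 and 12.7 CPM (log2 fold change 1.28 ± 0.16, adjusted p = 0.00048). Each of these ligands was separated in all libraries, and the calls of Areg, Csf1 and Fst held with each library left out in turn. Bdnf rose by less, 0.66 (adjusted p = 0.0293), and kept its call only without Sham_H2O2 replicate 1 (adjusted p from 0.0738 to 0.167 without each of the others). Lif, a further cytokine of the interleukin-6 family, had a log2 fold change of -0.17 at a mean of 11 counts, which is too few to show a moderate difference. Of 17 markers of macrophages, the cells that Csf1 acts on, 0 passed by edgeR or by DESeq2 (1 at an unadjusted p under 0.05), with a median of 0.17 and summed levels of 309.7 to 384.3 CPM after axotomy and 256.1 to 396.2 CPM after peroxide.

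Of the 17 measured members of the list of neuropeptide, opioid and cannabinoid receptors 3 rose (0.877% of all genes did) and none fell. The list median was -0.15. Outside the list the melanin-concentrating hormone receptor Mchr1, named after its value was seen, rose (1.70, adjusted p = 0.000143) and the nociceptin receptor Oprl1 fell (-0.69, adjusted p = 0.00856). Gpr151, an orphan receptor of sensory neurons, was at 36.4, 29.6 and 30.7 CPM after axotomy and at 11.4, 9.87 and 8.42 CPM after peroxide (log2 fold change 1.70 ± 0.16, adjusted p = 4.06e-05). Cckbr, the cholecystokinin and gastrin receptor, was at 8.25, 7.67 and 6.13 CPM against 1.42, 0.951 and 2.23 CPM. Its log2 fold change was 2.40 ± 0.46 (adjusted p = 0.0134), and its call was lost without SNA_Saline replicate 1 (adjusted p = 0.0702), Sham_H2O2 replicate 1 (0.0729) or Sham_H2O2 replicate 2 (0.136). Npy1r, a receptor of the peptide whose gene rose most, was at 67.2, 70.9 and 63.9 CPM against 43.2, 36.3 and 39.2 CPM (log2 fold change 0.77 ± 0.15, adjusted p = 0.0155). Its call was lost without any of SNA_Saline replicates 1 and 2 (adjusted p = 0.0675 and 0.0814) and Sham_H2O2 replicates 2 and 3 (adjusted p = 0.10 and 0.0513). The opioid receptors Oprd1, Oprm1 and Oprk1 had log2 fold changes of -0.96, -0.63 and -0.40 and did not pass. Of 18 trophic and cytokine receptors only Gfra1, the receptor that binds GDNF, rose. It stood at 367, 372 and 335 CPM against 223, 189 and 168 CPM, with every axotomized library higher (log2 fold change 0.89 ± 0.12, adjusted p = 0.000769). The genes of its signalling partner Ret and of the related Gfra2 and Gfra3 had log2 fold changes of 0.25, -0.27 and 0.48 and did not pass, and the neurotrophin receptor Ngfr was at -0.14.

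Genes of growth arrest and cell death changed singly. Gadd45a, a stress sensor that binds cell cycle and MAP kinase proteins, was at 288, 264 and 241 CPM after axotomy and at 78.9, 57.9 and 67.4 CPM after peroxide. It had the smallest adjusted p of all genes (9.09e-07), with a log2 fold change of 1.96 ± 0.13. Its relatives were apart from it, with Gadd45b at -0.14 and Gadd45g at 0.74, neither past the threshold. Cdkn1a, which codes for the cell cycle inhibitor p21, was at 164, 150 and 192 CPM against 109, 104 and 98 CPM (log2 fold change 0.71 ± 0.12, adjusted p = 0.007). The remaining 16 of the 18 p53 targets and Gadd45 genes did not pass. Of 17 Bcl2 family and caspase genes only Pmaip1, the pro-death protein NOXA, rose, from 4.27, 4.44 and 7.79 CPM to 13.7, 14.6 and 11.8 CPM (log2 fold change 1.32 ± 0.22, adjusted p = 0.00502). Its call was lost without Sham_H2O2 replicate 2 (adjusted p = 0.0581). The caspase gene Casp6, outside the list and named after its value was seen, also rose (0.74, adjusted p = 0.025), a call lost without SNA_Saline replicate 1 or 2 or Sham_H2O2 replicate 1 or 2 (adjusted p from 0.0896 to 0.147).

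Defence against oxidants gave 2 calls among 34 genes, both higher after axotomy, as 0.877% of all genes were. Srxn1, sulfiredoxin, which restores over-oxidized peroxiredoxins, was at 1055, 980 and 972 CPM after axotomy and at 622, 580 and 508 CPM after peroxide. The groups did not overlap, and the log2 fold change of 0.81 ± 0.09 (adjusted p = 9.76e-05) kept its call with each library left out. Txnrd1, thioredoxin reductase, was at 224, 219 and 218 CPM against 177, 164 and 140 CPM (log2 fold change 0.46 ± 0.10, adjusted p = 0.0301). That smaller call was lost without any single SNA_Saline library (adjusted p = 0.149, 0.109 and 0.0859 without replicates 1, 2 and 3) and without Sham_H2O2 replicates 2 or 3 (adjusted p = 0.0903 and 0.0939). The best known NRF2 targets Hmox1 and Nqo1 had log2 fold changes of 0.15 and -0.08, with overlapping groups, and the median over the 34 genes was 0.04. Bach1, the repressor that competes with NRF2 at the same element, was called outside the lists, at 0.82 (adjusted p = 0.0163; named after its value was seen), and kept its call only without SNA_Saline replicate 3 or Sham_H2O2 replicate 3 (otherwise 0.0638 to 0.112). Of 10 NADPH oxidase genes, whose products make superoxide, 0 passed by edgeR or by DESeq2 (1 at an unadjusted p under 0.05). Their median was 0.13, and Cybb, the catalytic subunit NOX2, was at 0.12. Of 25 genes of the integrated stress and unfolded protein response 0 passed by edgeR. At an unadjusted p under 0.05 were 8, against 7.29% of all genes, and 2 passed by DESeq2, which called 246 genes in all. The log2 fold changes of 23 were above 0, with a median of 0.19. The highest were Chac1 (0.89, adjusted p = 0.244) and Slc7a3 (0.77, adjusted p = 0.0901), a glutathione-degrading enzyme and an amino acid carrier. With the offset for GC share and length 5 of these 25 were called higher, as were 332 of all 15730 genes.

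Further increases lay in genes of other roles. Procr, the endothelial receptor of protein C, was at 34.9, 31.2 and 36 CPM against 9.31, 7.74 and 5.88 CPM (log2 fold change 2.15 ± 0.23, adjusted p = 7.85e-05). Tmem88b, a membrane protein gene, was at 26.2, 24 and 21.4 CPM against 8.79, 6.61 and 5.40 CPM (log2 fold change 1.78 ± 0.18, adjusted p = 4.29e-05). Aim2, a sensor of cytosolic DNA, was at 7.19, 6.81 and 5.06 CPM against 1.68, 1.81 and 1.91 CPM (log2 fold change 1.82 ± 0.33, adjusted p = 0.00856). These 3 were high in each axotomized library, and Aim2 lost its call without SNA_Saline replicate 1, Sham_H2O2 replicate 1 or Sham_H2O2 replicate 2 (adjusted p = 0.0543, 0.0546 and 0.0744). Bhlhe41, a repressor of the clock, was at 118, 120 and 112 CPM against 68.9, 60.1 and 71.7 CPM (log2 fold change 0.81 ± 0.12, adjusted p = 0.00234), and it was the only 1 of 16 clock genes to rise. Satellite glia, which wrap the neuron bodies, gave 2 rising genes of 10 markers, against 0.877% of all genes. Their intermediate filament gene Gfap was at 4.16, 4 and 6.84 CPM against 2.59, 1.68 and 0.954 CPM (log2 fold change 1.52 ± 0.31, adjusted p = 0.0197), and its call was lost without SNA_Saline replicate 3 (adjusted p = 0.113), Sham_H2O2 replicate 2 (0.137) or Sham_H2O2 replicate 3 (0.0681). Their glutamine synthetase gene Glul was at 507, 530 and 530 CPM against 342, 377 and 381 CPM (log2 fold change 0.51 ± 0.09, adjusted p = 0.00884), a call lost without SNA_Saline replicate 2 (adjusted p = 0.061) or Sham_H2O2 replicate 1 (0.0729). The summed satellite glia markers overlapped, at 1942 to 2302 CPM and 1909 to 2427 CPM, and Fabp7, the marker that defines these cells best, was at -0.52 (adjusted p = 0.596). Among 19 proliferation genes Mcm6, part of the replicative helicase, was called at 0.55 (adjusted p = 0.0468), and lost its call without any single library of the comparison except SNA_Saline replicate 3 (adjusted p from 0.0877 to 0.341).

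Only 12 genes were lower after axotomy than after peroxide, and their differences were small. Of these, 8 met the rule for named genes. Oprl1, the nociceptin receptor, was at 12.9, 16.3 and 13 CPM after axotomy and at 23.7, 24.3 and 19.6 CPM after peroxide (log2 fold change -0.69 ± 0.13, adjusted p = 0.00856). Htr3b, a subunit of the serotonin-gated channel, was at 14.8, 15.1 and 13.7 CPM against 22.2, 23.4 and 19.6 CPM (log2 fold change -0.59, adjusted p = 0.0124). Chrna6, a subunit of the nicotinic acetylcholine receptor, was at 33.6, 30.3 and 27.6 CPM against 46.6, 43 and 47.8 CPM (log2 fold change -0.58, adjusted p = 0.0168). These genes were lower in every axotomized library, which the rule for named genes requires. The uncharacterized transcript Gm16551 fell most of the 8, from 23.3, 23.4 and 19.7 CPM to 10.8, 14.4 and 11.3 CPM (log2 fold change -0.88 ± 0.13, adjusted p = 0.00128), and it was the only lower gene called with each library left out. The others were Nim1k (-0.64), Hoxd1 (-0.60), Trib2 (-0.51) and Kcnip1 (-0.40), a kinase gene, a homeobox gene of pain neurons, a pseudokinase gene and a gene of potassium channel-interacting proteins. For axotomy over Sham_Saline these stood at -0.38, -0.43, -0.33 and -0.27 and did not pass (adjusted p from 0.0709 to 0.162). Their values for peroxide over Sham_Saline were 0.26, 0.17, 0.18 and 0.12. Oprl1, Htr3b, Chrna6 and Gm16551 did pass for axotomy over Sham_Saline (adjusted p from 0.000351 to 0.0116). The calls of the 7 besides Gm16551 were each lost without 4 or 5 of the 6 libraries taken singly. Oprl1, Htr3b and Kcnip1 lost theirs without SNA_Saline replicate 1 or 3 or Sham_H2O2 replicate 1 or 2 (adjusted p from 0.0518 to 0.0927). Chrna6 lost its call without SNA_Saline replicate 2 or 3 or Sham_H2O2 replicate 1 or 3 (0.05 to 0.0973), and Hoxd1 without any SNA_Saline replicate or Sham_H2O2 replicate 1 (0.0624 to 0.156). Nim1k kept its call only without SNA_Saline replicate 1 (otherwise 0.0999 to 0.233) and Trib2 only without Sham_H2O2 replicate 2 (otherwise 0.0717 to 0.124).

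The lists of voltage-gated and transduction channels of the sensory neuron gave no call, and most of their log2 fold changes lay below 0. Of 26 potassium and HCN channel genes 0 passed by edgeR or by DESeq2. At an unadjusted p under 0.05 were 2, against 7.29% of all genes. Of the 26, 5 were above 0, and the median was -0.20 against -0.0017 over all genes. Sodium channels (0 of 10 by both tools, 1 at an unadjusted p under 0.05) had a median of -0.16, and transduction channels (0 of 16 by both tools, 2 unadjusted) one of -0.14. Scn10a, the sodium channel Nav1.8 of pain fibres, was at 411, 390 and 449 CPM after axotomy and at 518, 564 and 375 CPM after peroxide. The peroxide libraries lay on both sides of the axotomized ones, and its log2 fold change of -0.22 ± 0.14 did not pass (adjusted p = 0.94). Of 13 calcium channel genes 0 passed by both tools (2 unadjusted). Cacna2d1, the gabapentin-binding subunit, was at 397, 428 and 316 CPM against 304, 239 and 287 CPM, so that the groups did not overlap. Its log2 fold change was 0.46 (adjusted p = 0.63), and it was called with the offset for GC share and length (0.43, adjusted p = 0.00652). The sodium channel subunit Scn2b, at -0.24 (adjusted p = 0.344), was called lower with the same offset. Synaptic vesicle genes (0 of 22 by edgeR, 1 unadjusted, 1 by DESeq2), cytosolic ribosomal protein genes (0 of 74, 0 unadjusted, 0 by DESeq2) and respiratory chain genes (0 of 94, 0 unadjusted, 0 by DESeq2) had medians of -0.05, 0.01 and -0.045. The ribosomal median changed sign with upper-quartile factors, library totals, FPKM, the offset for GC share and length, and without SNA_Saline replicate 3 or Sham_H2O2 replicate 1 or 2. The calcium channel median changed sign without Sham_H2O2 replicate 1 or 2, and the transduction and synaptic medians without Sham_H2O2 replicate 2.

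Of the remaining lists, interferon-stimulated genes were above 0 in 15 of 17 cases with a median of 0.26, and 0 passed by either tool (2 unadjusted). Heat shock proteins (16 genes, 0 unadjusted) and the cholesterol and fatty acid synthesis genes (29 genes, 2 unadjusted) gave 0 calls by either tool, with medians of 0.06 and 0.055. Of the markers of other cells, those of Schwann cell myelin (15), fibroblasts and matrix (11), endothelium (11), adipocytes (6), oligodendrocytes and astrocytes (3) and sensory neurons (12) gave 0 calls by either tool and 0 at an unadjusted p under 0.05. Their medians were 0.09, 0.13, -0.02, -0.07, 0.02 and -0.02.

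**Figure D3:**
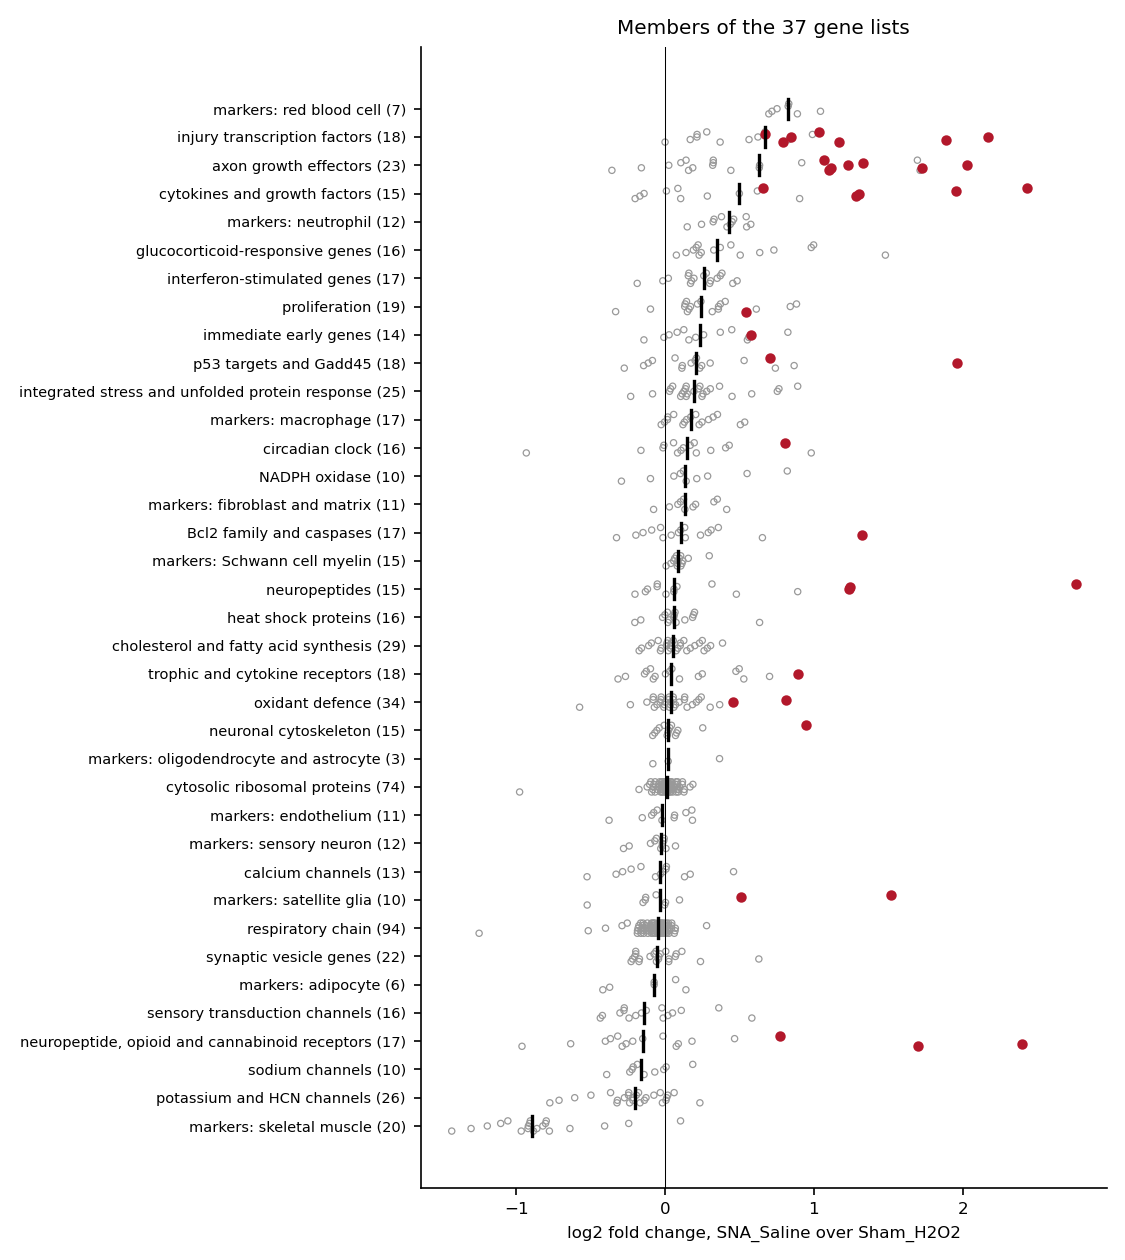
Log2 fold change, SNA_Saline over Sham_H2O2 (x axis), of the measured members of 37 gene lists, ordered by median (vertical bars), with the number of measured members in brackets. Red points passed the adjusted threshold and lie to the right of 0 in every list; red blood cell markers have the highest median (0.83) and skeletal muscle markers the lowest (-0.90) with no member past the threshold.

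Glucocorticoid-responsive genes, which stress hormones switch on through the glucocorticoid receptor, leaned one way without passing. Of 16 measured 0 passed by edgeR, and all 16 were above 0 with a median of 0.35. At an unadjusted p under 0.05 were 6, against 7.29% of all genes, and 1 passed by DESeq2, which called 246 genes in all. In 6 of the 16 every axotomized library was above every peroxide library, against 6.33% of all genes. Per1, a clock gene with glucocorticoid response elements, was at 16.3, 17.4 and 21.9 CPM after axotomy and at 6.21, 13.8 and 6.99 CPM after peroxide (log2 fold change 0.98 ± 0.30, adjusted p = 0.218). Mt2, a metallothionein, was at 14.9, 19.4 and 50.4 CPM against 8.15, 13.3 and 8.11 CPM (log2 fold change 1.48 ± 0.58, adjusted p = 0.472). Both were separated between the groups, Mt2 mostly through SNA_Saline replicate 3. Against Sham_Saline the list's median was -0.71 in the peroxide libraries and -0.17 in the axotomized libraries. Red blood cell markers lay on the same side of 0: 0 of 7 passed by either tool (2 at an unadjusted p under 0.05), all 7 were above 0 with a median of 0.83, none was at 0 in any library, and their summed level was 286.6, 401.5 and 723.1 CPM after axotomy against 259.3, 289.3 and 253.9 CPM after peroxide. Against Sham_Saline the median of these 7 was -1.16 in the peroxide libraries. Neutrophil markers were above 0 in 12 of 12 cases, with a median of 0.43. Of these, 0 passed by either tool, 0 were at an unadjusted p under 0.05, and the groups overlapped in each. Their sums were 457.3, 351.5 and 569 CPM after axotomy against 242.2, 278.9 and 542.8 CPM after peroxide. The part of these cells in the glucocorticoid-responsive genes was not tested.

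The comparisons with Sham_Saline set each group beside the saline sham; they share libraries with the comparison above and are given as values only. Axotomy over saline gave 430 calls (2.73%). Over the 138 higher genes the median log2 fold change was 0.98 for SNA_Saline over Sham_Saline and 0.13 for Sham_H2O2 over Sham_Saline, against -0.03 and -0.02 over all genes. Over the 12 lower genes these medians were -0.64 and 0.09. Peroxide over saline in sham gave 0 calls by edgeR among 15730 genes (1440 at an unadjusted p under 0.05, 9.15%) and 4 by DESeq2. Several of the named increases had their peroxide libraries above Sham_Saline, with no value past the threshold. Atf3 was at 55.9, 72.6 and 59.4 CPM in Sham_Saline, below all 3 peroxide libraries, with a log2 fold change of 0.66 ± 0.18 for peroxide over saline (adjusted p = 0.449) beside 2.82 ± 0.19 for axotomy over saline. Gadd45a was at 37.9, 48.9 and 50.4 CPM in Sham_Saline (0.57 ± 0.13, adjusted p = 0.449, beside 2.53 ± 0.13). Gpr151 was at 5.05, 6.15 and 5.22 CPM there (0.85 ± 0.17, adjusted p = 0.449, beside 2.55 ± 0.17). In each of these genes the order was Sham_Saline, Sham_H2O2 and then, far higher, SNA_Saline. Peroxide over saline was closer to 0 in other genes, at 0.07 for Csf1, 0.03 for Sox11, -0.04 for Gal and 0.02 for Txnrd1.

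Of the 138 higher genes, 2 with low values for peroxide over saline were singled out after their values were seen. Acer2, a ceramidase gene, was at 6.80, 7.35 and 12.8 CPM against 1.81, 3.8 and 4.13 CPM (1.45 ± 0.29, adjusted p = 0.0164), with -1.21 for peroxide over saline and 0.24 for axotomy over saline. Fam107a, which codes for an actin-binding protein that glucocorticoids induce, was at 42.2, 49.3 and 61.8 CPM against 28.8, 26 and 36.1 CPM (0.76 ± 0.16, adjusted p = 0.0284), with -0.76 and 0.01. In both genes every peroxide library was below every axotomized library. Acer2 lost its call without SNA_Saline replicate 3, Sham_H2O2 replicate 1 or Sham_H2O2 replicate 2 (adjusted p = 0.0908, 0.088 and 0.0581). Fam107a lost its call without SNA_Saline replicates 2 or 3 (adjusted p = 0.0918 and 0.162) and without Sham_H2O2 replicates 1 or 2 (0.143 and 0.173).

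Axotomy with N-acetyl-cysteine against Sham_Saline uses 6 libraries that the present comparison does not. It gave 522 calls (3.32%). Of the 150 genes, 133 were also called there in the same direction, 126 of the 138 higher genes (91.3% of them, 32.4% of the 389 higher there; background 2.47%) and 7 of the 12 lower genes (58.3%, and 5.26% of the 133 lower there; background 0.846%). The sign was the same for 137 of the 138 and 12 of the 12. The exception among the higher genes was Fam107a, at -0.15. Over the 150 genes Pearson's r between both log2 fold changes was 0.908, a description across genes that share the fit and its spread. These genes were picked for passing in the present comparison, which leaves out small differences and by itself can raise r. Atf3 was at 2.84 in that comparison, Npy at 2.91, Areg at 2.99 and Srxn1 at 0.94, beside their values for axotomy with saline over Sham_Saline (2.82, 3.29, 3.02 and 0.94). Injury of the central branch of the same neurons, DCA over LAM, gave 0 calls by edgeR (793 genes at an unadjusted p under 0.05, 5.04%) and 2 by DESeq2, and the medians of the 138 and of the 12 were -0.016 and 0.005. Atf3 was at 1.14 ± 0.19 there (adjusted p = 0.172).

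**Figure D4:**
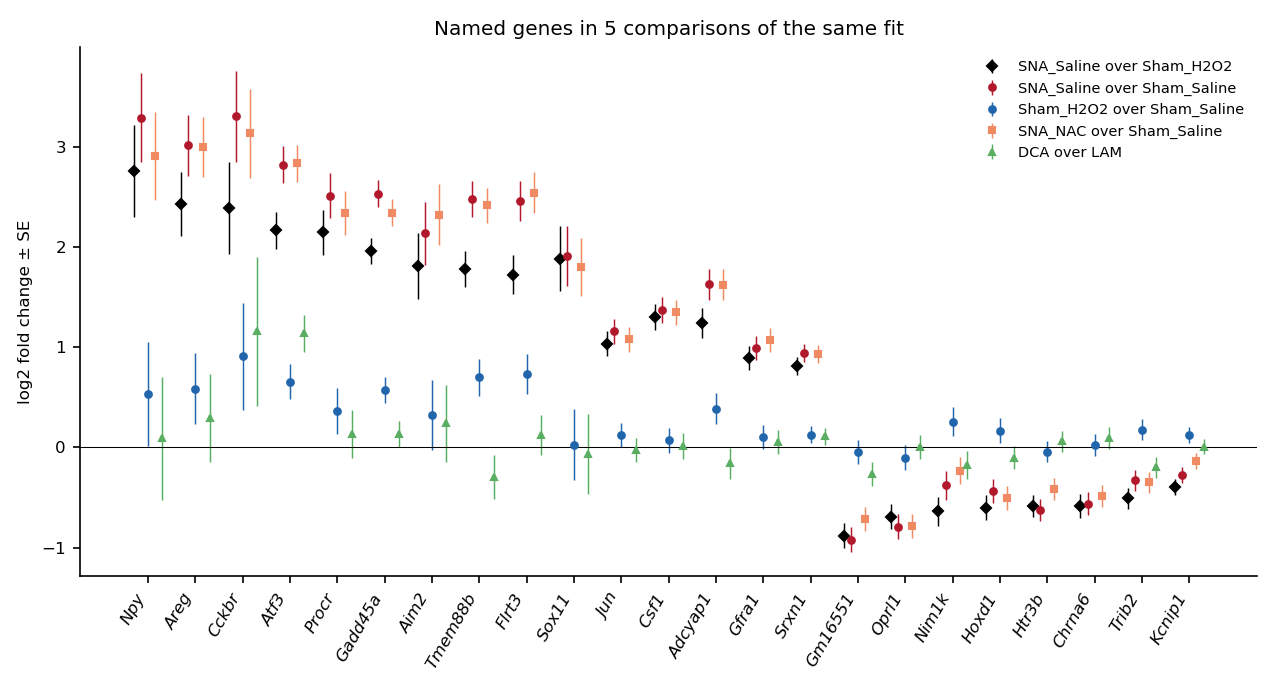
Log2 fold change with SE (y axis) of 23 named genes in 5 comparisons of the same fit. Black diamonds (SNA_Saline over Sham_H2O2) lie on the same side of 0 as the red circles (SNA_Saline over Sham_Saline) and orange squares (SNA_NAC over Sham_Saline), whereas the blue circles (Sham_H2O2 over Sham_Saline) lie between -0.10 and 0.91 and the green triangles (DCA over LAM) between -0.29 and 1.16.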

How the data were processed

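Polyadenylated RNA was sequenced from pooled ganglia (single end, 100 cycles, a stranded kit, 6 libraries in each of 3 lanes, per the labels' protocols). The deposited values are raw counts per gene for 15730 genes, and FPKM for 45904 features. The submitters' processing notes name TopHat2 2.0.12, Bowtie2 2.2.3, SAMtools 0.1.19, HTSeq 0.6.0, edgeR 3.8.6, limma 3.22.7 and mm10, with no order; the strand setting of the counting is not given in the sources used here. The lowest mean count in the count table was 10.1, so that genes below it are not tested here, and every gene passed the filter on low counts.

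Counts were fitted with edgeR 4.0.16 in R 4.3.3 (TMM scaling, quasi-likelihood test, all 18 libraries, Benjamini-Hochberg adjustment over all genes). SE was taken from F, as the size of the log2 fold change over the root of F. CPM values are TMM-scaled, with a prior count of 2 before logs. The common biological coefficient of variation was 17.4%. Alternatives were DESeq2 1.42.0, limma 3.58.1 on log2(FPKM + 1) from the deposited FPKM, other scalings, filters, offsets, a lane block and leaving out each library. Scripts were tested on simulated data. With 3 libraries a group an exact permutation test cannot go below 0.1, so the adjusted p-values rest on the fit across genes, and they measure the spread between pools.

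Named genes were the 10 largest increases and decreases past the threshold with a mean of at least 50 counts and no overlap, and in each of the 37 lists up to 4 members that passed, or the 2 with most counts where none did. Other genes are named for contrast with these, and a few that the rule names are not reported here. The lists and the comparison were chosen with earlier results of these data known. The table holds 11 repeated symbols. Replicate numbers mark the sequencing lane; deviations of same-numbered libraries from their group means correlated at -0.036, -0.425 and -0.37.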

Additional observations from a re-analysis of the deposited data

Results flagged for a closer look

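Of 193 features that have an FPKM value of at least 1 on average but no entry in the count table, 2 passed limma on log2(FPKM + 1). One of them repeats Flrt3. The other, the uncharacterized gene Gm13644, was listed at 5 FPKM, 5.64 FPKM and 4.86 FPKM after axotomy and at 2.61, 1.78 and 1.21 FPKM after peroxide, and is given here because no comparison of the count table includes it. All 3 axotomized libraries were higher, with a difference of 1.13 on the log2(FPKM + 1) scale (adjusted p = 0.00511).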

How the results depend on the processing

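Of the named genes' fold changes under other settings 1519 kept their side of the threshold and 107 kept their direction but lost the call. A further 2 gained a call (both Cacna2d1), and no called gene reversed. Sign changes of genes that were not called count among the 1519. Cacnb3, for example, ran from -0.225 to 0.222 and Fabp4 from -0.26 to 0.765. Counts of calls moved more, from 150 (138 higher, 12 lower, 133 of them also called in the same direction for SNA_NAC over Sham_Saline). DESeq2 called 246 (215 higher, 31 lower, 216 shared with the SNA_NAC comparison). With only the 6 libraries of the comparison 48 were called, 48 higher and 0 lower (824 genes at an unadjusted p under 0.05), and 36 were shared. A minimum absolute log2 fold change of 1 left 57, 57 higher and 0 lower, with 52 shared. Offsets for GC share and length gave 457 (332 higher, 125 lower, 383 shared), and these offsets with the replicate block gave 424 (316 higher, 108 lower, 352 shared). The replicate block for the lane alone gave 129 (120 higher, 9 lower), with 128 of the 150 kept. The number of lower genes was 20 at an adjusted p under 0.10, 20 with limma on log2(FPKM + 0.1) and 6 with counts thinned to the smallest library. Leaving out 1 library at a time, of the comparison or of Sham_Saline or SNA_NAC, gave 74 to 223 calls, 69 to 196 higher, 2 to 27 lower and 71 to 187 shared. With only the libraries of the comparison and not Sham_H2O2 replicate 3, chosen after seeing the data, 76 were called (70 higher, 6 lower). The causes of these differences were not tested, except that fewer samples entered some fits. At 6472476 counts the shallowest library limits what can be seen of genes near 10 counts.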
